A study of Mus musculus with 6 samples.

Results

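The 8 genes Slc4a1, Epb42, Rhag, Rhd, Ank1, Sptb, Kel and Ermap encode proteins of the red cell membrane and of the skeleton beneath it. They were chosen by name as red cell membrane genes, with earlier results of these data known. Every probe set that the platform annotation assigns to them alone was used, 15 of the 45037 tested probe sets and 8 of the 18193 genes. The arrays came from splenic T cells, purified by negative selection, of male C57BL/6 mice aged 10 weeks. There were 3 arrays from mice lacking the microRNA miR-142 (KO) and 3 from wild-type littermates (WT), each from 1 spleen. How the KO allele was made, and in which cells it acts, is not given in the sources used here. The probe set annotated to Mir142, the targeted gene, had log2 intensities of 5.97, 5.88 and 5.90 in KO replicates 1, 2 and 3, against 7.93, 8.13 and 7.67 in WT replicates 1, 2 and 3. All KO arrays lay below all WT arrays (log2 difference -1.99 ± 0.13, SE, n = 3 per group, limma adjusted p = 6.6e-05), and whether the probes lie in the deleted part is not given in the files.

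The membrane of a red cell is held by a net of spectrin tied to membrane proteins. Band 3, encoded by Slc4a1, exchanges chloride for bicarbonate and is the main anchor, reached through ankyrin-1 (Ank1) and protein 4.2 (Epb42), while Sptb encodes the beta chain of red cell spectrin. Rhag and the Rh protein (Rhd) form the Rh complex, and Kel and Ermap carry blood group antigens in humans. These genes are switched on as erythroblasts mature, which in mice takes place in the spleen as well as in bone marrow, and T cells are not known for making their products. GATA1 and KLF1 are the transcription factors best known for driving red cell genes.

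The bases before the start sites of the 8 genes are shown for the letters that GATA1 and KLF1 favour. The genes were chosen as red cell genes, and whether these letters bear on the KO difference was not tested. RefSeq promoters of the GRCm38.p6 build matched 6 of the 8 genes: Epb42, Rhag, Rhd, Sptb, Kel and Ermap. The 250 bases before each start were searched on both strands for a GATA motif, written AGATAA with the variants AGATAG and also TGATAA as well as TGATAG, and for a CACC box, written CCACCC with the variant CACACCC. Of the 6 promoters 5 held a GATA motif, against 26.5% of 32851 RefSeq promoters over the same length. A CACC box was found in 4 of the 6, against 32.7% of all promoters, and the 3 of Rhag, Kel and Ermap held both, against 6.95%. The promoters with both kinds of match are printed, with that of Sptb, which has a CACC box and no GATA motif, beside them. They lie at chr17:40810899-40811148 (plus strand) for Rhag, chr6:41704326-41704575 (minus strand) for Kel, chr4:119189996-119190245 (minus strand) for Ermap and chr12:76710548-76710797 (minus strand) for Sptb, and run 5′ to 3′ up to the base before the start, with matches in capitals:
Rhag: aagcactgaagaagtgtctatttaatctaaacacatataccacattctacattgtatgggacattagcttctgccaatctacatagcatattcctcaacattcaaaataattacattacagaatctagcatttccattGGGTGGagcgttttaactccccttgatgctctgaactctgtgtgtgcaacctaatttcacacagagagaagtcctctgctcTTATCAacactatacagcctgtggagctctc
Kel: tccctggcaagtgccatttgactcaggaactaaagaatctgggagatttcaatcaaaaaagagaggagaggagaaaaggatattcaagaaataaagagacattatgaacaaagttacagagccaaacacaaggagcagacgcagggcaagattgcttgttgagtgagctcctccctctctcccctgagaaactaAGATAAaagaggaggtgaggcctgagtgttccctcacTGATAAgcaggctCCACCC
Ermap: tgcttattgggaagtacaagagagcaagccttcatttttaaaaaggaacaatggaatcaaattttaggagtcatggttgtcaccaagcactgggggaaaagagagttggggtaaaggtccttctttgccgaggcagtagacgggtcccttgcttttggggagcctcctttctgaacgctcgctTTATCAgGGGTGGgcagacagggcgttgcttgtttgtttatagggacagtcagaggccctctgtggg
Sptb: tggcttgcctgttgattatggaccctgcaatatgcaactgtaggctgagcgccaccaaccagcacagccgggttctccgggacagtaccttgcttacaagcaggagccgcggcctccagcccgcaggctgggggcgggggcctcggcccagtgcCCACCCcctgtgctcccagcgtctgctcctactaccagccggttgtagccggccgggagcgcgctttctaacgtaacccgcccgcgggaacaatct

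In Rhag the GATA match began 31 bases before the start and the CACC match 112 bases before it. Kel had GATA matches beginning 56 and 19 bases before the start, and a CACC match in the last 6 bases. In Ermap the GATA match, beginning 67 bases before the start, and the CACC match, beginning 60 bases before it, were separated by 1 base. The GATA match of Rhd began 43 bases before its start and that of Epb42 226 bases before its start. The matches are a description of the letters in these windows and no measure of binding. No GATA match overlapped a CACC match. Each start is that of the RefSeq promoter. The annotated genes reach past it into the window, to 40811099 for Rhag, 41704334 for Kel and 119190013 for Ermap. The GATA match of Rhag and the CACC match of Kel thus lie inside the annotated gene.

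All 8 genes rose in KO at their brightest probe set, the one with the highest mean over the 6 arrays, where rose and fell stand for a limma adjusted p below 0.05 over all probe sets tested. That mean includes the KO arrays, so the choice can favour probe sets that are high in KO. Of all genes, 18.6% rose and 18.6% fell. For all 8 genes the lowest KO array exceeded the highest WT array, which held for 24.1% of all genes. Because the 8 genes were chosen with earlier results of these data known, the shares give scale and are no independent test. The median log2 difference, KO minus WT, was 2.91 over the 8 genes, against -0.06 over all genes. The differences ran from 0.85 for Sptb to 4.81 for Slc4a1, and 0.192% of all genes had a larger rise than Slc4a1, against 10.2% for Sptb. In these bulk samples more cells of a type and more RNA per cell cannot be told apart. The plot of the 8 genes by array shows these values.

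**Figure D1:**
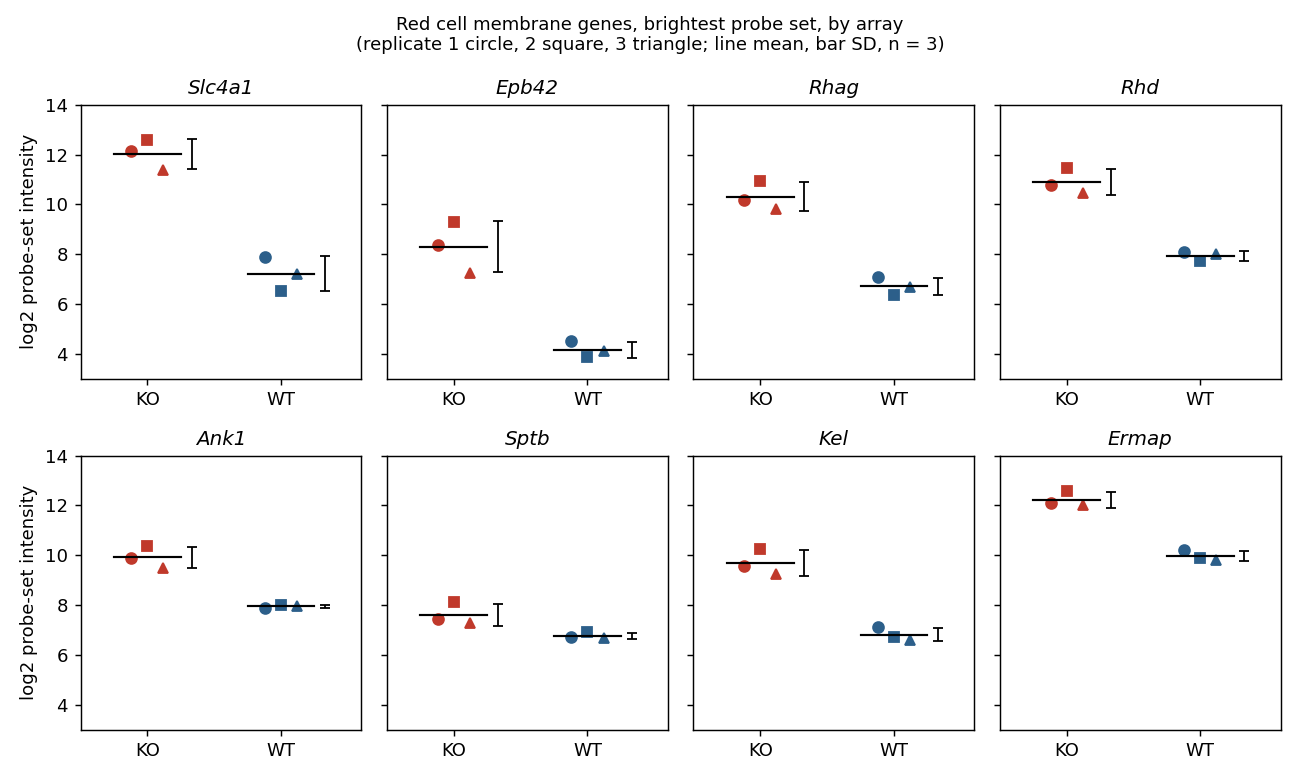
Log2 probe-set intensity of the brightest probe set of each of the 8 genes in each array, KO left and WT right, with symbols for replicates 1 to 3, a line at the mean and a bar of SD beside it (n = 3). All KO points lie above all WT points in each panel, the square of KO replicate 2 is the highest of the KO points and the triangle of KO replicate 3 the lowest.

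At the brightest probe set, band 3 and its partner protein 4.2 showed the largest rises of the 8 genes. Slc4a1, the anion exchanger, had log2 intensities of 12.12, 12.58 and 11.38 in KO replicates 1, 2 and 3, against 7.90, 6.52 and 7.22 in WT replicates 1, 2 and 3. The lowest KO array was 3.48 above the highest WT array. This is a 28.1-fold rise, with a log2 difference of 4.81 ± 0.40 (SE, n = 3 per group, limma adjusted p = 0.000180).

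Epb42, which holds band 3 to ankyrin, had log2 intensities of 8.36, 9.30 and 7.26 in KO replicates 1, 2 and 3, against 4.51, 3.88 and 4.10 in WT replicates 1, 2 and 3. KO replicate 2 stood 2.04 above KO replicate 3, the widest KO range of the 8 genes, and still no KO array reached down to a WT array. The log2 difference was 4.14 ± 0.46 (SE, n = 3 per group, limma adjusted p = 0.000636), a 17.7-fold rise.

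The genes of the Rh complex came next at the brightest probe set. Rhag, the glycoprotein that the Rh protein needs to reach the surface, had log2 intensities of 10.17, 10.94 and 9.82 in KO replicates 1, 2 and 3, against 7.08, 6.38 and 6.67 in WT replicates 1, 2 and 3. Its groups were 2.74 apart at their nearest arrays. The rise was 12.1-fold, a log2 difference of 3.60 ± 0.30 (SE, n = 3 per group, limma adjusted p = 0.000175). Rhd, its partner, had log2 intensities of 10.76, 11.46 and 10.44 in KO replicates 1, 2 and 3, against 8.09, 7.72 and 8.01 in WT replicates 1, 2 and 3. Again the groups were apart, and the WT arrays lay within 0.38 of each other. Rhd rose 7.72-fold, by 2.95 ± 0.25 (SE, n = 3 per group, limma adjusted p = 0.000194).

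The blood group surface proteins rose as well. Kel, an endothelin-cleaving enzyme bound to the XK protein, had log2 intensities of 9.55, 10.25 and 9.25 in KO replicates 1, 2 and 3, against 7.11, 6.72 and 6.60 in WT replicates 1, 2 and 3. The KO arrays were thus all at least 2.13 above the highest WT array. Kel rose 7.31-fold, by 2.87 ± 0.26 (SE, n = 3 per group, limma adjusted p = 0.000249). Ermap, an immunoglobulin-like protein of the butyrophilin family, had log2 intensities of 12.09, 12.56 and 12.003 in KO replicates 1, 2 and 3, against 10.21, 9.90 and 9.82 in WT replicates 1, 2 and 3. Its KO arrays spread over 0.56, the narrowest KO range of the 8 genes. Ermap rose 4.72-fold, by 2.24 ± 0.17 (SE, n = 3 per group, limma adjusted p = 0.000138).

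The skeleton genes had the smallest rises. Ank1, the ankyrin that ties band 3 to spectrin, had log2 intensities of 9.90, 10.35 and 9.48 in KO replicates 1, 2 and 3, against 7.89, 8.01 and 7.96 in WT replicates 1, 2 and 3. The WT arrays were within 0.12 of each other and the nearest KO array was 1.47 above them. Ank1 rose 3.88-fold, by 1.95 ± 0.20 (SE, n = 3 per group, limma adjusted p = 0.000455). Sptb, the spectrin beta chain, had log2 intensities of 7.46, 8.12 and 7.28 in KO replicates 1, 2 and 3, against 6.73, 6.91 and 6.67 in WT replicates 1, 2 and 3. The groups were 0.36 apart at their nearest arrays. Sptb rose 1.80-fold, by 0.85 ± 0.21 (SE, n = 3 per group, limma adjusted p = 0.0210), and the call was lost without WT replicate 1 (limma adjusted p = 0.0731) or WT replicate 3 (limma adjusted p = 0.0689).

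The 95% intervals of the log2 differences of Slc4a1 (3.87 to 5.75) and Epb42 (3.05 to 5.23) lay wholly above those of Ank1 (1.48 to 2.43) and Sptb (0.35 to 1.34). The Rhag interval (2.90 to 4.30) overlapped those of Slc4a1, Epb42, Rhd (2.36 to 3.54) and Kel (2.26 to 3.48). The differences between genes were not tested, and RMA understates changes of dim probe sets.

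Of the 15 probe sets 11 rose and 0 fell, against 13.9% of all probe sets that rose, and the other 4 gave no call, with unadjusted p-values from 0.0939 to 0.858. Rhag, Rhd, Kel and Ermap have 1 probe set each, and the other 4 genes have 2 to 4. A second bright Slc4a1 probe set, 1416464_at, rose 20.0-fold, by 4.32 ± 0.35 (SE, n = 3 per group, limma adjusted p = 0.000169). The brightest Slc4a1 probe set, 1434502_x_at, has a suffix that marks probes able to cross-hybridise. The third, 1431743_a_at, stayed dim, at 4.69 ± 0.11 in KO and 4.93 ± 0.21 in WT (SD, n = 3), and differed by -0.24 (limma adjusted p = 0.198), or by 0.12 after scaling to the hybridization controls (limma adjusted p = 0.537).

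The second Epb42 probe set, 1417338_at, rose 1.62-fold (log2 difference 0.69 ± 0.14, limma adjusted p = 0.00973), less than the 17.7-fold of the brightest. In WT arrays 1417338_at was the brighter, with a mean of 5.04 against 4.16 for 1417337_at, which was chosen through its KO values. For Ank1, 1425677_a_at rose 2.79-fold (log2 difference 1.48 ± 0.30, limma adjusted p = 0.00869). The Ank1 probe sets 1443291_at and 1452512_a_at differed by 0.04 and 0.02, and the second Sptb probe set, 1455226_at, by 0.10 (limma adjusted p = 0.847, 0.910 and 0.613). Scaling to the hybridization controls adds 0.37 to the log2 difference of every probe set, after which 38.4% of all probe sets rose, these 3 among them. When the probe sets of each gene were averaged in place of taking the brightest, the log2 differences were 2.96 for Slc4a1, 2.42 for Epb42, 0.87 for Ank1 and 0.47 for Sptb, and all 4 stayed past the threshold. The order of the genes then changed. Rhag (3.60) had the largest rise, Slc4a1 was level with Rhd (2.95), and Epb42 lay below Rhd and Kel (2.87). Which transcript forms the probe sets match is not given in the files.

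**Figure D2:**
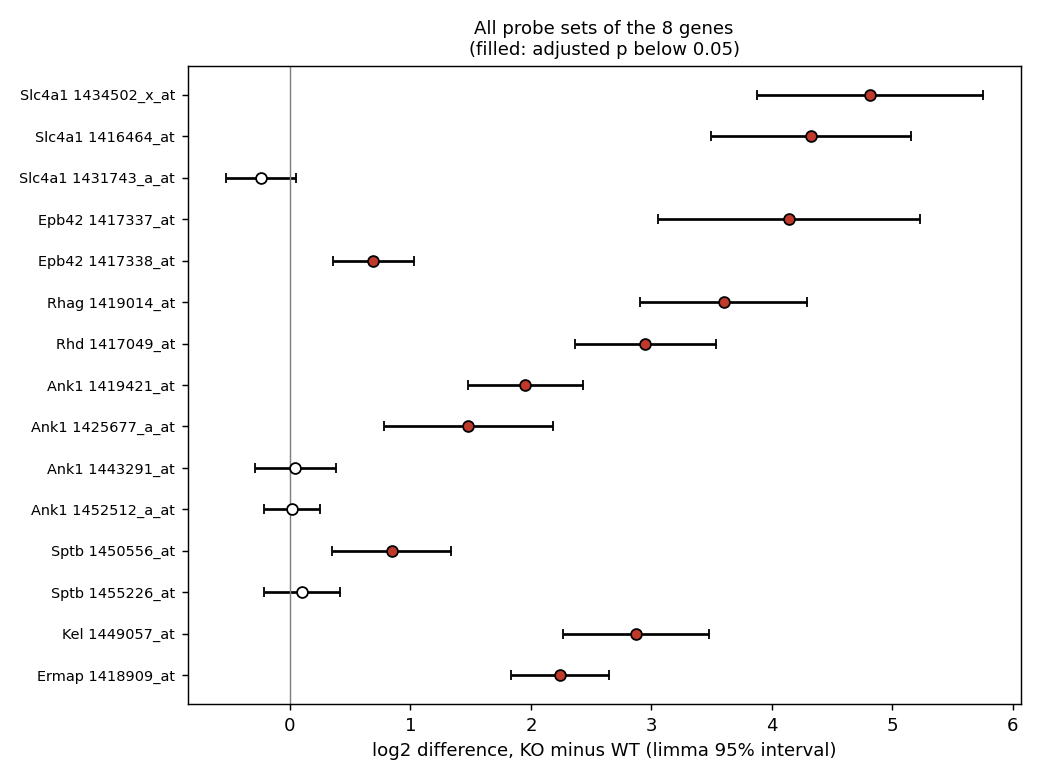
Log2 difference, KO minus WT, of all 15 probe sets of the 8 genes with limma 95% intervals, filled where the adjusted p was below 0.05. The 11 filled points lie right of 0, and the 4 open points, of Slc4a1, Ank1 and Sptb, lie between -0.24 and 0.10.

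Among KO arrays, replicate 2 was the highest and replicate 3 the lowest for all 8 genes at the brightest probe set. The mean of the 8 genes stood 2.86, 3.50 and 2.42 above the WT mean in KO replicates 1, 2 and 3, and at 0.25, -0.19 and -0.06 in WT replicates 1, 2 and 3. Leaving out each array in turn, the difference ran from 4.46 to 5.16 for Slc4a1, from 3.64 to 4.67 for Epb42, from 3.29 to 3.84 for Rhag, from 2.66 to 3.17 for Rhd, from 2.59 to 3.09 for Kel, from 2.07 to 2.36 for Ermap, from 1.73 to 2.17 for Ank1 and from 0.60 to 1.02 for Sptb. The order of the KO arrays was thus shared by the 8 genes, and without any 1 array all 8 differences stayed above 0.

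Other genes of erythroid cells, with the 8 genes and other membrane genes left aside, rose for 12 of 15 measured members and fell for 1, with a median log2 difference of 1.95. The shares over all genes were 18.6% that rose and 18.6% that fell. Their list mean was 9.73 to 10.39 in KO and 7.93 to 8.20 in WT, highest in KO replicate 2 and lowest among KO arrays in replicate 3, as for the 8 genes. The largest rises were those of Cldn13, a claudin made by mouse erythroblasts (3.45 ± 0.27), Hemgn, a nuclear protein of erythroid cells (3.34 ± 0.27), Trim10, a ring finger protein of erythroid cells (3.29 ± 0.33), and the transcription factor Nfe2 (3.26 ± 0.15, SE, n = 3 per group). Not every gene shared the array order of the list mean. Hemgn and Trim10 did. Nfe2 was highest in KO replicate 1 (10.92, 10.67 and 10.61 in KO replicates 1, 2 and 3), and Cldn13 was lowest there (10.96, 11.88 and 10.99). At the brightest probe set that matches 1 globin gene alone, Hba-a1 differed by -0.03, Hbb-b2 by -0.37 and Hba-a2 fell by 0.50. The means were 4.52 in KO and 4.55 in WT for Hba-a1, and 4.68 in KO and 5.19 in WT for Hba-a2. Both probe sets were dim, below the median level of 5.77 over all probe sets, so they say little about alpha globin RNA. Hbb-b2 stood at 6.90 in KO and 7.27 in WT. The second Hbb-b2 probe set, 1427866_x_at, whose suffix marks probes able to cross-hybridise, had log2 intensities of 6.97, 8.17 and 5.42 in KO replicates 1, 2 and 3, against 4.84, 4.47 and 4.71 in WT replicates 1, 2 and 3. It rose by 2.18 ± 0.60 (SE, n = 3 per group, limma adjusted p = 0.0313), with the KO arrays in the order of the 8 genes. That call, examined after its values were seen, did not hold when any WT array or KO replicate 1 was left out or with trend and robust fitting (limma adjusted p = 0.0723 to 0.0990). The Hba-a2 call did not hold when WT replicate 1 or 3 or KO replicate 1 or 3 was left out, and after scaling to the hybridization controls the difference was -0.14 (limma adjusted p = 0.383). Probe sets shared by several globin genes were not used.

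T cell markers, which check the label of the samples, fell for 13 of 13 measured, against 18.6% of all genes that fell. Their list mean was 9.28 to 10.72 in KO and 12.11 in each WT array. The counts for markers of other cells stand beside the 18.6% of all genes that rose. Of mast cell, basophil and eosinophil markers 10 of 11 rose (list mean 9.72 to 10.33 in KO and 5.43 to 5.65 in WT), of neutrophil markers 11 of 14 (9.79 to 12.37 in KO and 6.14 to 7.05 in WT), of monocyte and macrophage markers 6 of 8 (7.81 to 8.77 in KO and 5.40 to 5.81 in WT), of megakaryocyte and platelet markers 5 of 8 (7.27 to 7.41 in KO and 6.12 to 6.31 in WT) and of B cell markers 1 of 9 (6.82 to 8.63 in KO and 6.17 to 6.58 in WT). KO replicate 2, highest for the 8 genes, was the lowest KO array for the T cell markers, the neutrophil markers and the mast cell, basophil and eosinophil markers. It was the highest for the B cell markers and for the megakaryocyte and platelet markers. In these lists KO replicate 3 was the lowest KO array, the same order as for the 8 genes. In the Actb controls, which bear on RNA quality, the 3' end exceeded the 5' end by 0.32 to 0.40 in KO and 0.16 to 0.23 in WT, and the 18S controls were 7.86 in KO replicate 1, against 9.15 to 9.66 in the other arrays. The part of these differences in the rise of the 8 genes was not tested.

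**Figure D3:**
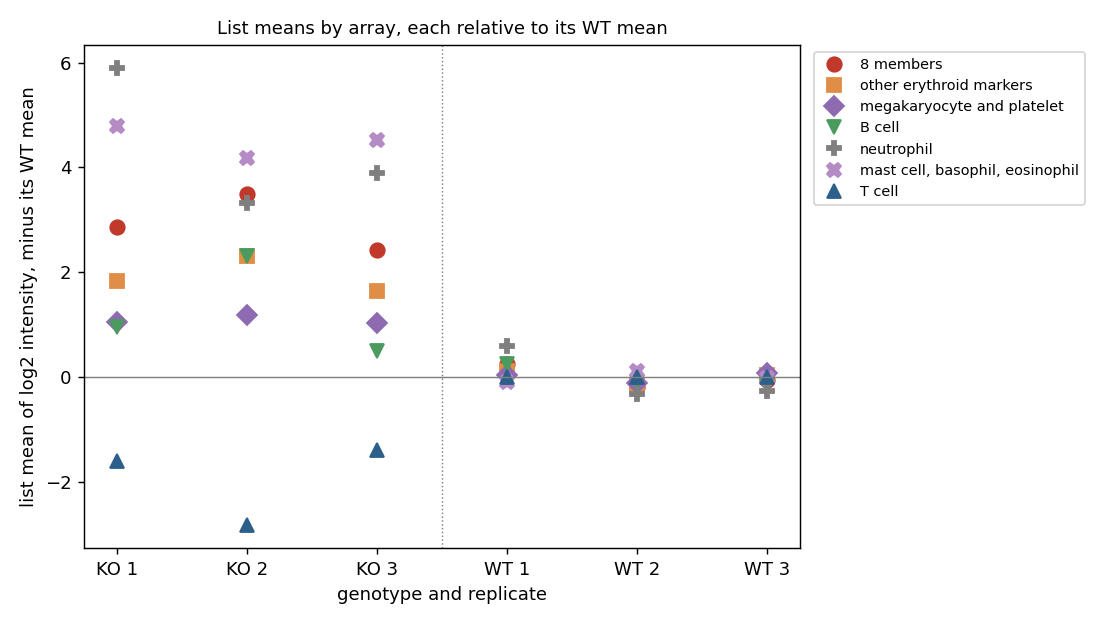
Mean log2 intensity of each gene list in each array, minus the mean of the 3 WT arrays, for the 8 red cell membrane genes and 6 lists of cell type markers, KO arrays left of the dotted line and WT arrays right. The 8 genes stand at 2.42 to 3.50 in KO arrays and at -0.19 to 0.25 in WT arrays, and the T cell markers at -2.83 to -1.39 in KO arrays.

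Of 9 measured other genes of the spectrin and actin net and its linkers, 3 rose, 2 fell and 4 gave no call, with a median log2 difference of 0.11. With 18.6% of all genes rising and 18.6% falling, such counts over 9 genes are near those of genes in general. Add2, the adducin chain of red cells, had log2 intensities of 9.09, 9.94 and 8.66 in KO replicates 1, 2 and 3, against 6.59, 6.24 and 6.87 in WT replicates 1, 2 and 3. It rose 6.32-fold, a log2 difference of 2.66, against 1.31 for the mean of its probe sets, and its 4 other probe sets rose too. Tmod1, which caps the short actin filaments, rose by 1.95 ± 0.37 (SE, n = 3 per group), and Tpm1, a tropomyosin of those filaments, by 1.05 ± 0.19, with 0.37 for the mean of its probe sets. Add3, an adducin of many cells, fell by 1.65 ± 0.17 (SE, n = 3 per group), and Add1, the adducin chain shared by red cells and others, by 0.48 ± 0.10, a call lost after scaling to the hybridization controls and with the mean of its probe sets. Dmtn, the actin-bundling protein dematin, was not called at its brightest probe set, with 7.64 ± 0.12 in KO and 7.54 ± 0.10 in WT (SD, n = 3), whereas its probe set 1460223_a_at rose by 2.39, with 7.85 ± 0.71 in KO and 5.46 ± 0.12 in WT (limma adjusted p = 0.00135).

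Of 24 measured other membrane proteins and transporters of red cells, 15 rose, 3 fell and 6 gave no call, with a median log2 difference of 0.67. Among all genes 18.6% rose and 18.6% fell. Stom, the membrane protein stomatin, rose by 2.94 ± 0.16 (SE, n = 3 per group), and the water channel Aqp1 by 2.77 ± 0.21. Next came Tspo2, an erythroid cholesterol-binding protein (2.48 ± 0.23), the adhesion molecule Icam4 (2.39 ± 0.25), the amino acid transporter Slc43a1 (2.26 ± 0.23) and the porphyrin transporter Abcb6 (2.21 ± 0.17). Aqp3, a glycerol and water channel, fell by 2.39 ± 0.16, the glucose transporter Slc2a1 by 1.35 ± 0.20 and the potassium channel Kcnn4 by 0.49 ± 0.08. The call of Kcnn4 was lost after scaling to the hybridization controls, and the rise of Stom was 1.61 with the mean of its probe sets. Xk, the partner of Kel, differed by 0.47 ± 0.19 and was not called (limma adjusted p = 0.102).

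Of 20 measured paralogues of the 8 genes that other cells use, 5 rose, 2 fell and 13 gave no call, with a median log2 difference of -0.05, near the 18.6% that rose and 18.6% that fell among all genes. F13a1, the clotting transglutaminase of platelets and macrophages, rose by 5.55 ± 0.21 (SE, n = 3 per group), and Tgm2 and Tgm1, transglutaminases of the family of protein 4.2, by 2.93 ± 0.22 and 1.10 ± 0.15. The brightest Tgm2 probe set has the suffix of probes able to cross-hybridise, and the mean of the Tgm2 probe sets rose by 1.90. Slc4a8, a bicarbonate transporter, rose by 1.08 ± 0.20 at its brightest probe set, but its 4 other probe sets differed by -0.26 to -0.17 and the mean of all its probe sets by 0.04. Ece2, an endothelin-converting enzyme of the family of Kel, rose by 0.52 ± 0.13. That call did not hold when WT replicate 1 or 2 or KO replicate 2 or 3 was left out, or when its probe sets were averaged. The spectrins of other cells went the other way from Sptb: Sptan1, the alpha chain, fell by 0.95 ± 0.16 and Sptbn1, a beta chain, by 0.93 ± 0.28. The Sptbn1 call did not hold when any WT array or KO replicate 3 was left out, after scaling to the hybridization controls, with the replicate block (limma adjusted p = 0.0585) or with trend and robust fitting (limma adjusted p = 0.0642), and without KO replicate 2 it fell by 0.56. The ankyrins Ank2 and Ank3 differed by -0.05 and -0.06, the anion exchanger Slc4a2 by 0.16 and the Rh relatives Rhbg and Rhcg by 0.20 and -0.16, none past the threshold.

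**Figure D4:**
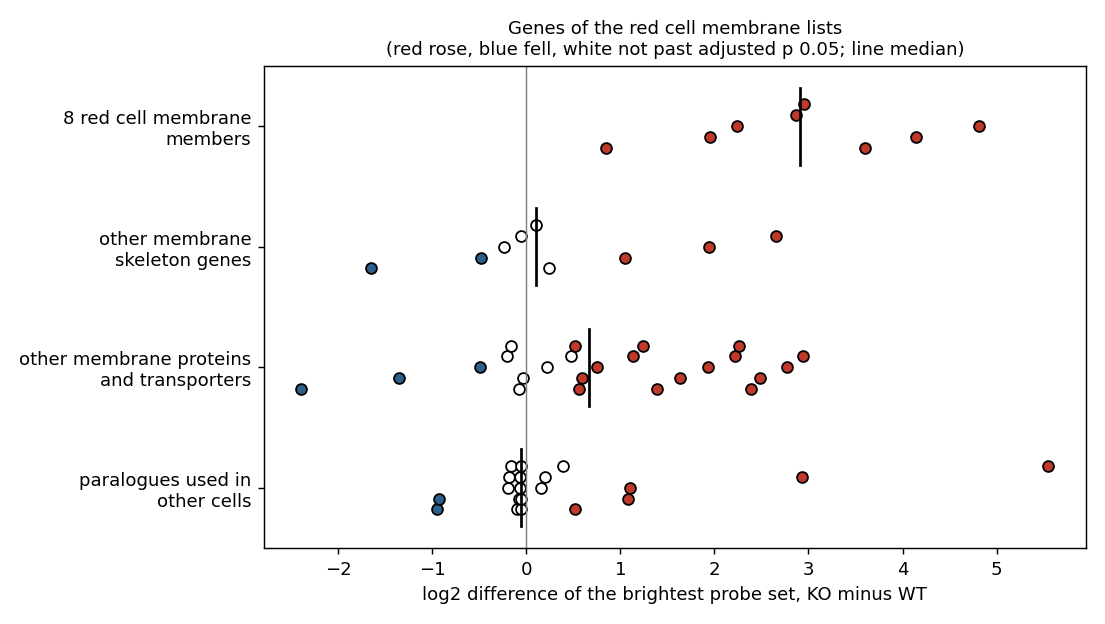
Log2 difference, KO minus WT, of the brightest probe set of each gene in the 8 red cell membrane genes and 3 lists of related genes, red where the gene rose, blue where it fell and white where it gave no call, with a line at the median. The medians are 2.91, 0.11, 0.67 and -0.05 from top to bottom.

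The genes whose 6 array values, relative to the WT mean, lay nearest to the mean of the 8 genes were sought among the 18185 other genes. They were Parvb, Depdc1a, Esco2, Aqp1, Lmna and Wipi1, at root mean square distances of 0.137 to 0.160 on the log2 scale. Parvb encodes a focal adhesion protein, Depdc1a and Esco2 are genes of dividing cells, Lmna encodes nuclear lamins, Wipi1 a protein of autophagy, and Aqp1 stands in the membrane list too. Parvb, the nearest, had 8.39, 8.88 and 8.11 in KO replicates 1, 2 and 3, against 5.70, 5.41 and 5.24 in WT replicates 1, 2 and 3. KO replicate 2 was its highest array, as in the mean by which it was chosen. Nearest to Slc4a1 alone were Fcer1a, Ly86, Mcpt4, Prg3, S1pr3 and Ear3, at distances of 0.497 to 0.581. Fcer1a and Mcpt4 are genes of mast cells or basophils and Prg3 and Ear3 of eosinophils, and all 6 rose, by 4.53 to 5.44 at the brightest probe set. Fcer1a, Ly86, Mcpt4, Prg3 and Ear3 were highest in KO replicate 1, whereas S1pr3, like Slc4a1, was highest in KO replicate 2. The brightest Ear3 probe set has the suffix of probes able to cross-hybridise. With the mean of probe sets the rise was 2.34 for S1pr3, against 5.27 at the brightest, 1.46 for Parvb, against 3.01, 1.36 for Lmna, against 2.85, and 1.74 for Wipi1, against 2.92. The likeness over 6 arrays is set mostly by the size of the difference between the groups.

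**Figure D5:**
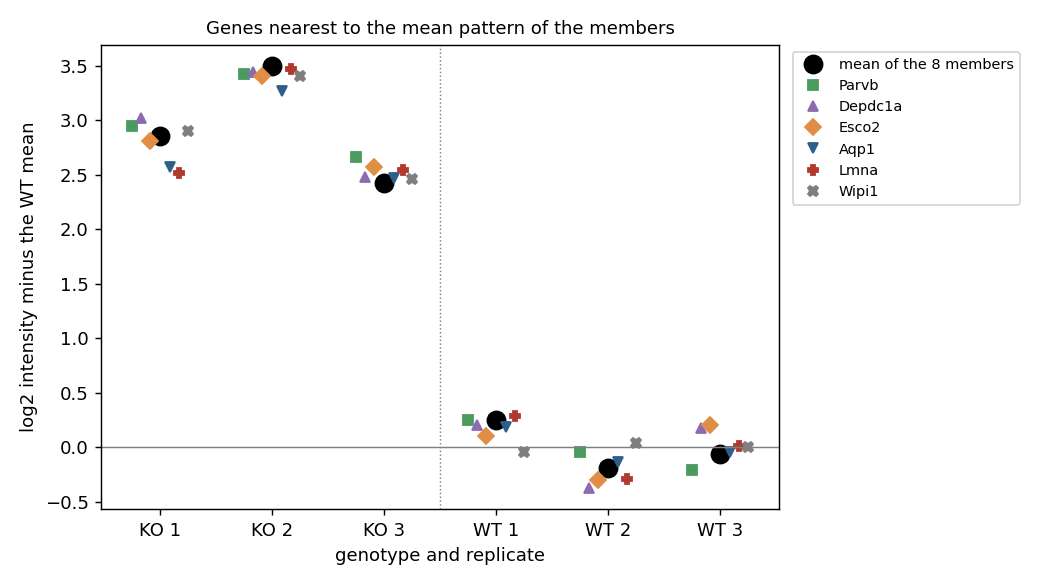
Log2 intensity minus the WT mean in each array for the mean of the 8 red cell membrane genes (black) and the 6 genes nearest to it, KO arrays left of the dotted line and WT arrays right. The mean stands at 2.86, 3.50 and 2.42 in KO replicates 1, 2 and 3, and KO replicate 2 is the highest KO array for all 6 genes. These genes were chosen by nearness to the mean, so the shared order follows in part from the choice.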

How the data were processed

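Per the submitters' processing notes, the authors made the deposited log2 probe-set intensities with RMA (version not given in the sources used here) from Affymetrix 1-colour arrays, and per the labels the RNA was amplified and carried a biotin label. The deposited values were analysed with no filter or pseudocount. They carry no detection calls, and the number of arrays limits the precision. Of 45101 probe sets 64 were controls and 45037 were tested. The platform annotation gave 1 gene for 34945, several for 932, and did not list 9160. Each gene was taken at its brightest probe set.

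Genotype was fitted with limma 3.58.1 in R 4.3.3 (lmFit and eBayes), and two-sided p-values were Benjamini-Hochberg adjusted over all tested probe sets. The fit was tested on simulated data. Replicates are separate animals, since the labels name individual spleens, and no label gives a batch. Which KO and WT mice shared a litter is not given in the labels either, so the main fit has no block for litter. Deviations of same-numbered KO and WT arrays correlated at 0.10, -0.24 and -0.20, and those of differently numbered arrays at -0.16 to 0.27. With 3 arrays per group the deviations depend on each other, so these values do not settle whether the numbers pair the arrays. The 8 genes and the lists were chosen with earlier results of these data known. Named beside them are up to 6 risers and 4 fallers of each list, 4 erythroid genes each way and the 6 nearest genes. Genes of the lists without a single-gene probe set in the annotation were not analysed here. Alternatives were 3 other scalings, a filter on dim probe sets, array weights, robust fitting with a trend, a replicate block, other thresholds, the mean of probe sets and leaving out each array.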

Additional observations from a re-analysis of the deposited data

How the results depend on the processing

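All 8 genes rose under the 10 alternatives that kept every array and without WT replicate 2 or any KO replicate, and 7 rose without WT replicate 1 or 3, where Sptb missed the threshold at 0.82 and 0.80. The filter on dim probe sets used the mean over all arrays. With a cut of 5.77, Epb42 passed it through its KO arrays, with means of 8.31 in KO and 4.16 in WT. Over all alternatives the log2 differences kept their sign, with 2.96 to 5.18 for Slc4a1, 2.42 to 4.67 for Epb42 and 0.47 to 1.21 for Sptb. Scaling to the hybridization controls gave a median difference over all probe sets of 0.29, against -0.08 as deposited. It raised 17309 probe sets and lowered 2337, against 6242 and 6986 as deposited, and 42.8% of genes then rose. Under it 6 skeleton genes rose and 1 fell, and 8 paralogues rose and 1 fell. With a minimum of 1.5-fold 3856 probe sets and 1 skeleton gene fell, and Hba-a2, Add1, Kcnn4 and Ece2 lost their calls. With the mean of probe sets 3 paralogues rose, and with trend and robust fitting 1 (Sptan1) fell. With the replicate block all 8 genes rose, 5296 probe sets rose and 5117 fell, and 1 paralogue (Sptan1) fell. Leaving out each array, the paralogues that fell numbered 1 to 2. The medians of the skeleton genes and paralogues changed sign with a repeated quantile normalization (-0.000296 and 0.00316), and that of the paralogues also under control scaling (0.31) and without dim probe sets (0.36, over 10 genes). The causes were not tested. Alternatives for the genes named beside the 8, the second Hbb-b2 probe set included, were run after seeing the data. Dim probe sets limit what the array can show.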
